A study of Mus musculus with 2 samples.

Results

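The genes of vasopressin (Avp), oxytocin (Oxt), the oxytocin receptor (Oxtr) and the V1a vasopressin receptor (Avpr1a) were followed in the hypothalamus of mice lacking Crtc1. They were taken by symbol, as all probe sets that GEO's annotation of the Affymetrix mouse array pairs with 1 of these genes alone. This gave 4 genes and 6 probe sets out of 18193 genes and 45037 probe sets. The Crtc1 KO group was 1 array of hypothalamic RNA mixed from 3 Crtc1 knockout mice, and the Crtc1 WT group was 1 array of hypothalamic RNA mixed from 3 wild-type mice. All animals were males aged 12 weeks that went without food for 18 h and were then fed again for 6 h, so that both groups share the fast and the meal. Strain, construction of the allele and whether it is deleted in every cell are not given in the sources used. Each group is a single pool, so there is no spread between mice, no test between genotypes and no replicate check for any difference below.

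Crtc1 encodes a coactivator that binds the transcription factor CREB, and the study placed it in energy balance and fertility. The brightest Crtc1 probe set, 1434476_at, read 85.1 in the KO pool and 631.3 in the WT pool, a log2 difference of -2.89, and another, 1458443_at, read 31.5 and 209.2 (-2.73), in the direction the labels state. How these probe sets lie to the deleted part is not known here. Signals are the authors' linear probe-set intensities, with a median of 54.4 in the KO pool and 52.2 in the WT pool. Values below the 30th percentile of an array (20.5 in KO and 20.2 in WT) were raised to it before taking log2. A probe set counted as measured when its mean log2 signal over both pools reached the median of all such means, which corresponds to a signal of 52.3. Differences are KO minus WT in log2 units. The error given beside them is the array error, the SD of the differences that several measured probe sets gave for the same gene, by signal range.

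Vasopressin and oxytocin are short peptides cut from larger precursors that also contain a neurophysin, the carrier with which each hormone is packed into granules. Magnocellular neurons of the supraoptic and paraventricular nuclei send them down axons to the posterior pituitary, from which vasopressin acts on the kidney and blood vessels and oxytocin on the uterus and mammary gland. Smaller parvocellular neurons release them within the brain, and neurons of the suprachiasmatic nucleus, the circadian pacemaker, also make vasopressin. The oxytocin receptor and the V1a receptor are G protein-coupled receptors that act mainly through Gq, phospholipase C and calcium.

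Both hormone genes were higher in the KO pool. The Avp probe set 1450794_at read 1690.4 in the KO pool, against 1148.9 in the WT pool. This is 1.47-fold higher, a log2 difference of 0.56 with an array error of 0.16. The Oxt probe set 1420556_at read 969.2 in the KO pool and 695.3 in the WT pool. It was 1.39-fold higher, a log2 difference of 0.48 with an array error of 0.21. The difference of Avp was 3.51 times its array error and that of Oxt 2.33 times. The array error holds no spread between mice and no shift that all probe sets of a gene share, so these ratios are not tests. The log2 differences of Avp and Oxt lay 0.08 apart, within their combined array error of 0.26. In hypothalamic tissue, more cells of a type and more RNA per cell cannot be told apart. These values thus do not separate the number of hormone neurons from the RNA in each.

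**Figure D1:**
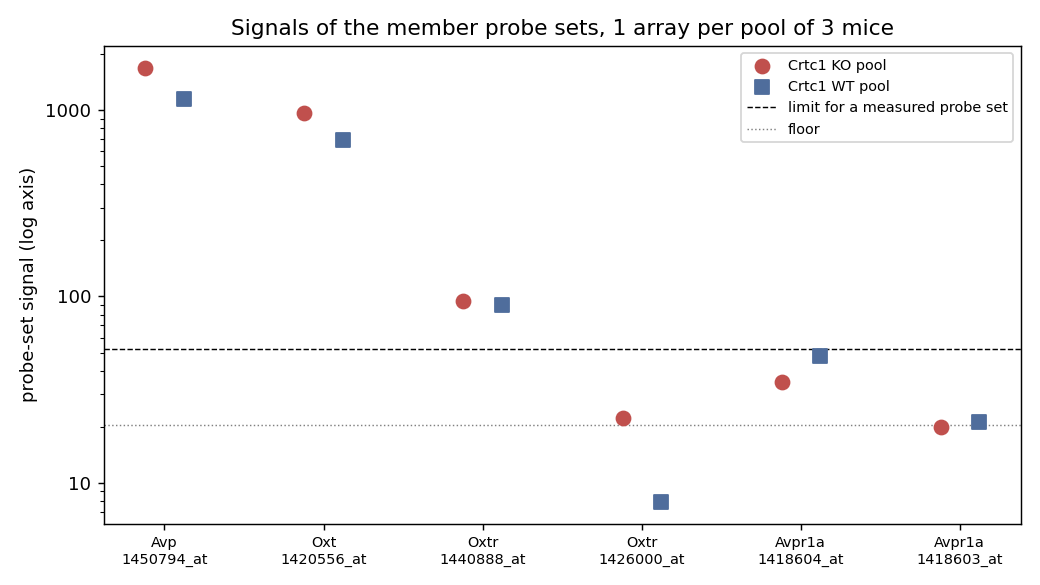
Signal of each of the 6 member probe sets on a log axis in the Crtc1 KO pool (circles) and the WT pool (squares), 1 array each. The dashed line marks the signal of 52.3 that corresponds to the limit for a measured probe set and the dotted line the floor of 20.5 in the KO pool. The Avp and Oxt probe sets lie far above both lines, and the KO pool is the higher of the pair for each.

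Of the 6 member probe sets, 3 were measured, 1 each for Avp, Oxt and Oxtr, and all of these exceeded the limit in each pool taken alone. Of the 3, 2 were higher in the KO pool by a log2 difference of at least 0.32, the size used for counts throughout, and none was that much lower. Among all 22519 measured probe sets 11.1% were that much higher and 8.35% that much lower, 19.5% in all. At 1.5-fold none of the 3 passed, while 4.79% of all measured probe sets did.

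Differences of this size were uncommon among probe sets as bright as those of the hormones. With a mean log2 signal of 10 and above, the range in which Avp lies, 1.41% of 2775 probe sets were higher by at least 0.32 in the KO pool and none (0%) was 1.5-fold higher. Avp had the highest difference of the 1790 genes in that range, each taken by its brightest probe set. Only 1 other probe set in the range was as high, 1456464_x_at of Syt11, a synaptotagmin gene, named here after its value was seen, with 3553.3 in the KO pool and 2407 in the WT pool (log2 difference 0.56). In the range from 9 to 10, where Oxt lies, 3.39% of 3099 probe sets were higher by at least 0.32, and 34 (1.10%) had a difference as high as that of Oxt. The arrays differed slightly with signal. The median difference was -0.02 in the range of Avp, -0.01 in that of Oxt and 0.05 in the dimmest range, that of Oxtr. All of these are shares of probe sets on 1 pair of arrays.

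**Figure D2:**
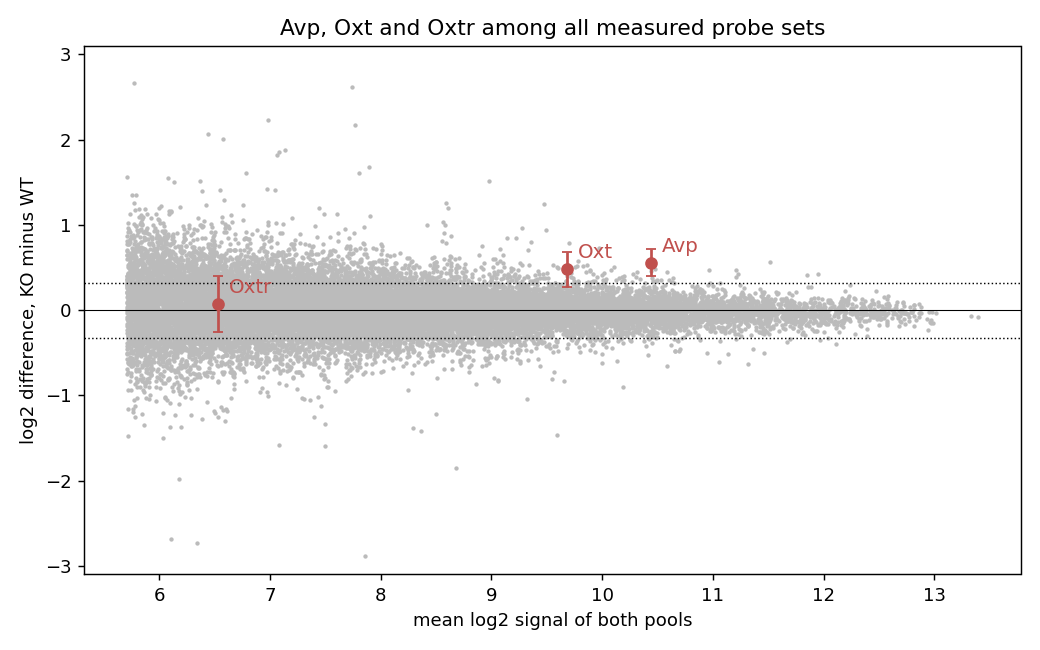
Log2 difference, KO minus WT, against the mean log2 signal of both pools for all 22519 measured probe sets (grey). Avp, Oxt and Oxtr are in red with bars of 1 array error on either side, and dotted lines mark differences of 0.32 either way. Avp (0.56) lies at the upper edge of the cloud at its signal, Oxt (0.48) near that edge, and Oxtr (0.07) in the middle.

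Avp and Oxt are neighbours on chromosome 2 and are transcribed from opposite strands, with no annotated protein-coding gene between them in the RefSeq order of assembly GRCm38.p6. The genes around them differed little between the pools. On the Oxt side Mrps26, a mitochondrial ribosomal protein gene, read 627.8 in the KO pool and 676.5 in the WT pool (-0.11). Beyond it, the receptor phosphatase gene Ptpra differed by -0.01 and Vps16, a subunit of vesicle tethering complexes, by 0.08. On the Avp side Ubox5, a ubiquitin ligase gene, read 146.5 and 140.2 in the KO and WT pool (0.06), with probe sets of both signs. Fastkd5 and Lzts3, the genes after it, differed by -0.02 and -0.02. Each of these differences was within the array error of its probe set.

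Sequence before the annotated starts of Avp and Oxt is shown because these are the members that differed together, and because CREB, the partner of Crtc1, binds the letters TGACGTCA or their core TGACG. The 250 bases end at the base before the RefSeq start, read 5′ to 3′ on the strand of the gene, from the RefSeq promoter table of GRCm38.p6, in which all 4 genes were found. The Avp window is chr2:130582589-130582838 on the minus strand and the Oxt window chr2:130575919-130576168 on the plus strand. Capitals mark matches to 5 motifs searched on both strands, namely TGACGTCA, TGACG, the AP-1 motif TGANTCA bound by Fos and Jun, the E-box CACGTG bound by Clock and its partner, and AGGTCA, the core bound by many nuclear receptors. TGACG lies within TGACGTCA, and none of the others overlapped in these windows.
Avp: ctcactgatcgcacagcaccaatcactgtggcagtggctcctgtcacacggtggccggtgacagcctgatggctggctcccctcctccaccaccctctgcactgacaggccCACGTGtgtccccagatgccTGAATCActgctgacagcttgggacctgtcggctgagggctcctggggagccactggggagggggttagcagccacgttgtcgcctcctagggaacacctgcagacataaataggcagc
Oxt: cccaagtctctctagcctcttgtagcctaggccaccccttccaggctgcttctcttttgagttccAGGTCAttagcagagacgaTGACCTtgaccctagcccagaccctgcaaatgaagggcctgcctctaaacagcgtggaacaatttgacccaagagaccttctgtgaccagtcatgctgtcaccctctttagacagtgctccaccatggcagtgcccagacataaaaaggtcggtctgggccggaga

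The matches differed between the hormone genes. The Avp window held an E-box, starting 139 bases before the start, and a match to TGANTCA, starting 119 bases before it. The letters of that match are TGAATCA, while the AP-1 motif itself has C or G in the middle. The Oxt window held AGGTCA 185 bases before the start and, on the other strand, 166 bases before it. Neither window held TGACG or TGACGTCA. Of the receptor genes, Oxtr held AGGTCA 98 bases and an E-box 43 bases before its start, and Avpr1a held 1 TGACG, 165 bases before its start. Over the windows of the same length of all 32851 promoters in the table, 17.8% held TGACG, 1.55% TGACGTCA, 6.75% TGANTCA, 6.02% CACGTG and 14.0% AGGTCA. A match describes the letters only, and a missing match says only that these letters are not in this window.

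**Figure D3:**
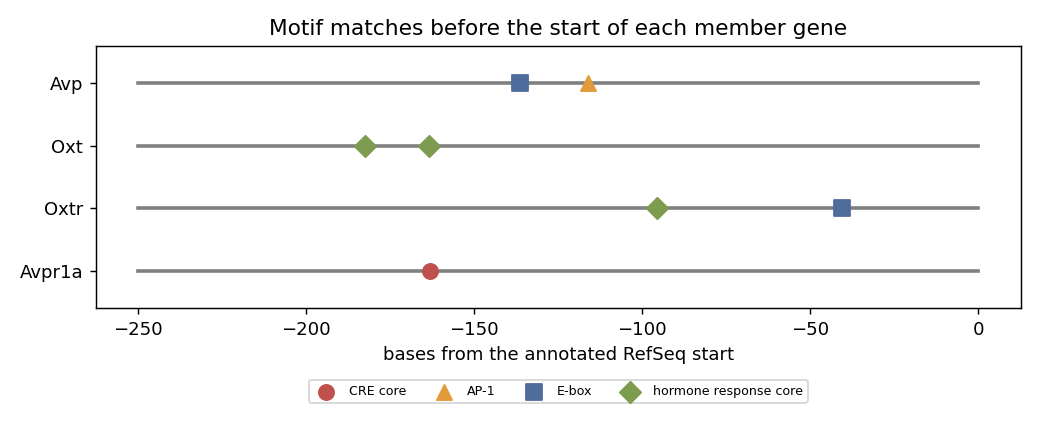
Matches to the searched motifs in the 250 bases before the annotated RefSeq start of each member gene, drawn at their distance from the start in bases. Avp and Oxt share no motif, and the CRE core TGACG is seen in Avpr1a, 165 bases before its start. The label AP-1 stands for the wider pattern TGANTCA.

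Among all 45037 probe sets the Avp signal stood at percentile 96.9 in the KO pool and 94.6 in the WT pool. The Oxt signal stood at percentile 93.4 in the KO pool and 90.4 in the WT pool. These places describe the brightness of probe sets, which also depends on the probes, and they do not order the 2 transcripts by abundance. Avp and Oxt were each read by 1 probe set, so neither has a second reading. Their neurophysin-coding exons are known to be closely similar in sequence, and whether either probe set also binds RNA of the other gene was not tested.

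The receptors gave far dimmer signals. The brighter Oxtr probe set, 1440888_at, read 94.6 in the KO pool and 90.0 in the WT pool, at percentiles 60.1 and 59.8. Its difference of 0.07, or 1.05-fold, was within its array error of 0.32. The other Oxtr probe set, 1426000_at, read 22.4 in the KO pool and 7.9 in the WT pool, which is under the floor, and was not measured. After flooring, its difference was 0.15.

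Avpr1a was not measured by either of its probe sets. The brighter, 1418604_at, read 34.7 in the KO pool and 47.9 in the WT pool. This is 1.38-fold lower, a difference of -0.47 with an array error of 0.32, and 18.8% of the 7033 measured probe sets of the dimmest range, all brighter than this one, differed by as much. The dimmer, 1418603_at, read 20.0 in the KO pool and 21.1 in the WT pool, at or close to the floor. A difference of Avpr1a between the pools was thus not detectable at these signals. Of the remaining vasopressin receptors, Avpr1b, which acts on pituitary corticotrophs, read 1.2 and 1.4, and Avpr2, which acts on water reabsorption in the kidney, read 16.5 and 15.5, in the KO and WT pool, all under the floor.

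By the pair of log2 signals in the 2 pools, the genes closest to Avp were Usp32, Ap2b1 and Fkbp3, at Euclidean distances of 0.07, 0.13 and 0.15. Those closest to Oxt were Gng10, Arfgap2 and Rragd, at 0.04, 0.05 and 0.08. Gng10, which encodes a G protein gamma subunit, read 995.3 in the KO pool and 703.8 in the WT pool. Usp32, a ubiquitin protease gene, read 1682.5 and 1207.2. The genes closest to Oxtr were 2900052L18Rik, Nbn and Ppfia1, at 0.0022, 0.0086 and 0.011. With only 2 arrays such closeness says that the signals are alike and nothing more.

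The wider system was described by 7 lists of genes that regulate, process, release, accompany or receive these hormones, or act in peptide breakdown. The lists were written with earlier results of these data known, so their shares do not test whether such genes differ more often. Of 86 genes on them, 65 were measured, 25 higher and 40 lower in the KO pool, with a median difference of -0.07 against 0.00 over all 11312 measured genes. Of all measured genes 50.9% were higher and 49.0% lower in the KO pool. Apart by at least 0.32 were 16 genes (24.6%), 7 higher and 9 lower, against 15.5% of all measured genes, 8.78% higher and 6.74% lower. At least 1.5-fold apart were 5 (7.69%), all lower, against 3.5% of all measured genes either way and 1.44% lower. These 5 were Chga, Prcp, Cartpt, Vipr2 and Nr1d1. Prcp and Vipr2 lay under the limit of 52.3 in the KO pool and counted as measured through the WT pool, which favours a lower call. Among the 63 list genes that reached the limit in each pool alone, a setting chosen after seeing the data, 3 (4.76%) were at least 1.5-fold lower, namely Chga, Cartpt and Nr1d1, against 1.09% of all 11014 such genes.

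The list nearest to the transcription of Avp and Oxt held 3 genes higher by at least 0.32 and none that much lower. Over all measured genes 8.78% were that much higher and 6.74% that much lower. With median centring the count of 3 was 2, since Nr2f1 was 0.29, and with the filter at the 70th percentile it was 1. Of the 13 genes on this list 11 were measured, 7 higher and 4 lower, with a median of 0.05 that was -0.01 with median centring. Creb3l1, a transcription factor gene whose product drives Avp transcription in rat, read 80.2 in the KO pool and 57.0 in the WT pool. It was 1.41-fold higher (0.49, array error 0.32). Caprin2, whose product binds Avp mRNA in rat, read 85.5 in the KO pool and 61.9 in the WT pool and was 1.38-fold higher (0.47, array error 0.32). Both are dim, in a signal range where the median difference was 0.05. Of the measured probe sets in that range 16.6% differed by as much as Creb3l1 and 18.7% by as much as Caprin2. Nr2f1, which encodes the nuclear receptor COUP-TFI, was 1.27-fold higher (0.35, array error 0.21).

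The developmental regulators of the hormone neurons gave no difference beyond array error where they were measured. Otp, a homeobox gene needed for these neurons to form, read 253.2 in the KO pool and 243.9 in the WT pool (0.05). Pou3f2, which encodes the POU factor Brn2, differed by -0.03 and Arnt2, which encodes the partner of Sim1, by -0.11. Sim1 itself read 36.4 in the KO pool and 16.1 in the WT pool and was not measured. By their brightest probe sets Creb1 differed by 0.06 and Crem by -0.14, both within array error. As the mean of its 2 measured probe sets, both lower, Crem differed by -0.34, against an array error of 0.32. Clock, which encodes an E-box binding protein, differed by -0.16 by its brightest probe set and by 0.09 as the mean of its probe sets.

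The genes that process and pack peptide hormones were mostly lower in the same KO pool in which Avp and Oxt were higher. Of 12 genes 11 were measured and 9 of these were lower, with a median of -0.09, and 2 were lower by at least 0.32. Of all measured genes 6.74% were that much lower. Most genes of the list are bright, and of all measured probe sets with a mean log2 signal of 10 and above 56.3% were lower. Chga, the chromogranin A gene, whose product fills hormone granules, read 824.6 in the KO pool and 1266.5 in the WT pool, 1.54-fold lower (-0.62, array error 0.21). Pcsk1n, whose product proSAAS inhibits a prohormone convertase, read 3851.2 and 5059.1 and was 1.31-fold lower (-0.39, array error 0.16). Scg2, another granin gene, was 1.22-fold lower (-0.28, array error 0.16). Pam, which encodes the enzyme that amidates vasopressin and oxytocin at their last residue, read 140.9 in the KO pool and 115.1 in the WT pool (0.29, within its array error of 0.32). The carboxypeptidase gene Cpe, which acts earlier on the cut precursor, read 5755.3 and 5829.1 (-0.02).

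Peptides that share neurons or nuclei with vasopressin and oxytocin did not follow them as a group. Of 10 genes 9 were measured and 7 of these were lower, with a median of -0.23. Apln, the gene of apelin, a peptide found in vasopressin neurons of the rat, read 340.8 in the KO pool and 262.3 in the WT pool and was 1.30-fold higher (0.38, array error 0.23). Gal, the galanin gene, read 209.8 and 296.6 and was 1.41-fold lower (-0.50, array error 0.26). Cartpt, the gene of the appetite-reducing CART peptide, read 401.5 in the KO pool and 706.8 in the WT pool and was 1.76-fold lower (-0.82, array error 0.21). Pdyn, whose dynorphin is stored with vasopressin, differed by -0.28, within its array error of 0.32. Trh, made in the paraventricular nucleus, differed by 0.05, and Crh, made in the same nucleus, read 50.5 and 37.9 in the KO and WT pool and was not measured.

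**Figure D4:**
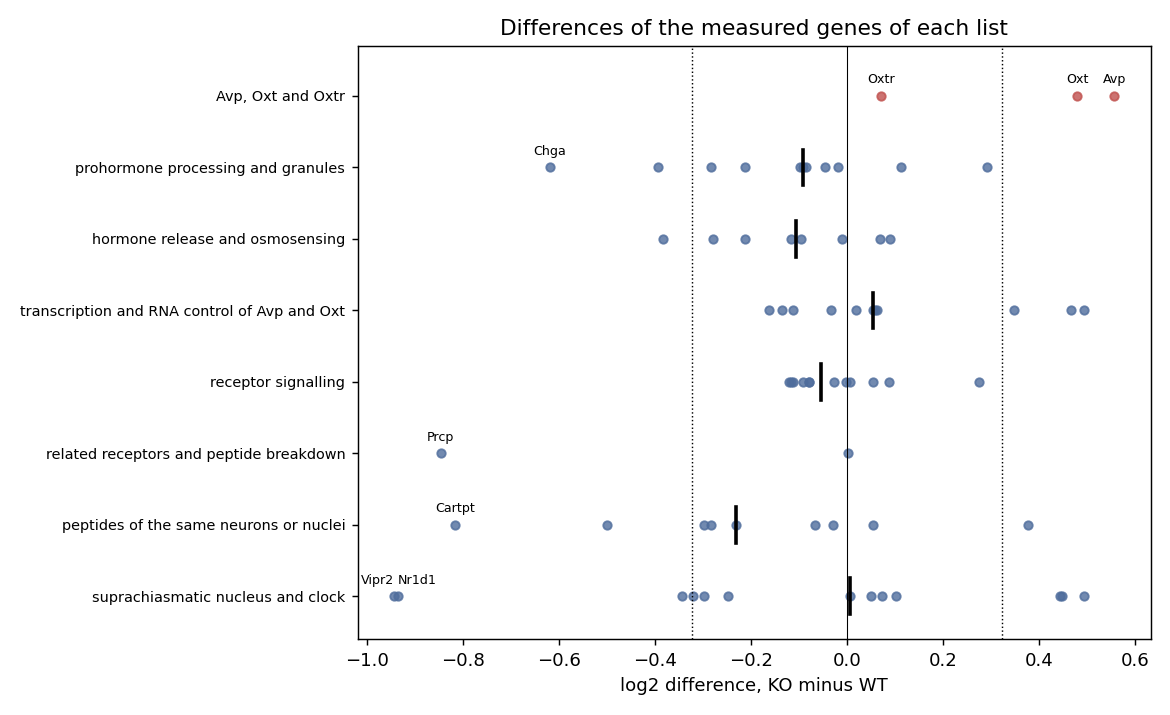
Log2 difference, KO minus WT, of each measured gene (points) of the 7 lists, with Avp, Oxt and Oxtr in the top row. Black bars are list medians, drawn where more than 2 genes were measured, dotted lines mark 0.32 either way, and genes at least 1.5-fold apart are named. Avp (0.56) lies to the right of every gene on the lists, and the 5 points past 1.5-fold lie on the left, of which Prcp and Vipr2 were measured through the WT pool alone.

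Genes of hormone release and of osmosensing, by which the neurons respond to plasma salt, were mostly close in level. Of 12 genes 8 were measured and 6 of these were lower, with a median of -0.11. The 1 gene apart by 0.32 or more was Trpv2, a cation channel gene, which read 88.6 in the KO pool and 115.6 in the WT pool (-0.38, array error 0.32), and 27.2% of measured probe sets in its signal range differed by as much. Hcn3, a pacemaker channel gene, differed by -0.28 (array error 0.26). The large calcium-activated potassium channel gene Kcnma1 differed by -0.21 by its brightest probe set and by -0.03 as the mean of its probe sets. Trpm2 differed by -0.12, within its array error. Trpv1 and Trpv4, channels with known roles in osmosensing, were not measured.

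Downstream of the receptors no measured gene was apart by 0.32 in either direction, against 15.5% of all measured genes. Of 17 genes of Gq signalling and receptor desensitisation 12 were measured and 8 of these were lower, with a median of -0.05. Plcb1, a phospholipase C gene, had the largest difference and was 1.21-fold higher (0.27, array error 0.16) by the brightest of its probe sets, which had both signs and a mean of 0.10. Prkca and Prkcb, which encode protein kinase C enzymes, differed by -0.12 and -0.11, and Itpr2, a calcium release channel gene, by -0.12, all within array error. Itpr2 was 0.21 when probe sets with IDs ending in _s_at or _x_at were left out.

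Of the 5 related receptors and genes of peptide breakdown 2 were measured. Prcp, which encodes prolylcarboxypeptidase, an enzyme that trims several peptides at their carboxyl end, read 44.9 in the KO pool and 80.7 in the WT pool, 1.80-fold lower (-0.85, array error 0.32). Its knockout signal was under the limit of 52.3, so that it counted as measured through the WT pool alone, and its difference was -0.57, under 1.5-fold, with a floor at the 50th percentile. Avpi1, a gene first found as induced by vasopressin, read 280 and 279.6, a difference of 0.00 that was -0.06 with median centring.

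Because Avp is also made in the suprachiasmatic nucleus, genes of that nucleus and of the clock were set beside it. Of 18 genes 13 were measured and 7 of these were higher, with a median of 0.01 that was -0.05 with median centring. Vip, a peptide of the nucleus in cells other than the Avp cells, read 312.5 in the KO pool and 384.3 in the WT pool (-0.30, array error 0.23). Vipr2, its receptor there, read 38.7 and 74.4 and was 1.92-fold lower (-0.94, array error 0.32), and it too counted as measured through the WT pool alone. With a floor at the 50th percentile its difference was -0.45, under 1.5-fold. Nr1d1, a repressor of the clock, was 1.91-fold lower (-0.93, array error 0.23). Rorb, an orphan nuclear receptor gene expressed in the nucleus, was 1.41-fold higher (0.49, array error 0.23) with all probe sets of one sign. The clock repressor gene Cry1 was 1.36-fold higher (0.45, array error 0.32), and Lhx1 and Six6, factors of the nucleus, were not measured.

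Markers of tissue that a dissection could include moved in different directions beside Avp and Oxt. None of the 9 anterior pituitary markers on the array was measured, and Prl and Gh, its most abundant hormone genes, read 1.2 and 6.8 in the KO pool and 3.5 and 23.7 in the WT pool. Of 12 markers of other hypothalamic nuclei 7 were measured, 6 lower and 1 higher, with summed signals of 5908 in the KO pool and 6342 in the WT pool. Neuron markers, 7 of 7 measured, summed to 25418 and 25535 in the same order.

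Markers of cortex and striatum were mostly higher in the KO pool, those of the thalamus were split and those of the choroid plexus mostly lower. Of 7 markers of cortex and hippocampus 6 were measured, 5 higher and 1 lower. They summed to 3497 in the KO pool and 2973 in the WT pool. Neurod6 was 1.57-fold higher (0.65) and Emx2, next in size, was 1.37-fold lower (-0.46). Emx2 read 48.3 in the KO pool, under the limit for a measured probe set, and 66.3 in the WT pool. It thus counted as measured through the WT pool alone, which favours a lower call. Of the measured probe sets in its signal range 19.4% differed by as much. Of 8 striatum markers 6 were measured, 5 higher and 1 lower, with sums of 2941 and 2699. The largest difference was that of Rgs9, which read 476.4 in the KO pool and 333.8 in the WT pool. It was 1.43-fold higher (0.51, array error 0.23). By their brightest probe sets Drd1, Drd2, Tac1 and Ppp1r1b differed by 0.13, 0.13, 0.12 and 0.07 and Pde10a by -0.09, each within array error. As the mean of its probe sets Drd1 was 0.31. Of the 6 thalamus markers 3 were higher and 3 lower, with a median of 0.01 that was -0.05 with median centring. They summed to 4853 in the KO pool and 5014 in the WT pool, much of it from Prkcd (2539.2 and 2794.1), while Tcf7l2 was 0.23 higher by its brightest probe set and 0.53 higher as the mean of its probe sets. Of 10 choroid plexus markers 9 were measured, of which 8 were lower and 1 was higher. Their median was -0.31, and 4 were lower by at least 0.32, led by Folr1 (-0.58) and Kl (-0.54). Of all measured genes 6.74% were that much lower. The 9 choroid plexus markers summed to 9016 in the KO pool and 10172 in the WT pool, mostly from Ttr (7745 and 8570.7). No measured marker on these lists had a difference of exactly 0. The part of these shifts in the differences of Avp and Oxt was not tested.

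Avp and Oxt were higher in the KO pool under each of the 10 alternative ways of handling the values. Each is read by a single bright probe set, so other floors, filters and choices of probe sets could not change its difference. Only median centring, quantile normalization, loess and the pseudocount could. The difference of Avp ranged from 0.50 to 0.57 and that of Oxt from 0.42 to 0.49. Oxtr stayed between 0.01 and 0.07 in the 9 alternatives that measured it. Avpr1a ranged from -0.52 to 0.06, the last with a floor at the 50th percentile, at which both pools lay at the floor.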

How the data were processed

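RNA of 3 hypothalami per genotype was pooled and hybridised to 1 array, from 30 ug of total RNA per the labels' protocols. The authors deposited linear intensities, 1 per probe set and array, and how probes were summarised is not stated in the labels. By the values, the mean without the lowest and highest 2% was 200 on both arrays, as a scaling by 1 factor per array would give, although the labels state no scaling. The 64 control probe sets were left out. Of 45037 others, 34945 were paired with 1 gene. Of these, 34741 were found by Entrez ID in RefSeq (GRCm38.p6) and took the symbol given there.

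Signals were floored at the 30th percentile of each array and put on the log2 scale. A gene took its brightest measured probe set. The medians of the arrays differed by 0.06, so the deposited scaling was kept. Members and lists were chosen with earlier results of these data known. Named genes were all member probe sets, Crtc1, list genes at least 1.5-fold apart, up to 4 genes per list of largest difference, the 3 nearest genes by signal and 3 neighbours on each side of Avp and Oxt. Further genes are named for their role and were chosen after their values were seen. The number of arrays limits precision. The array error was 0.32, 0.26, 0.23, 0.21 and 0.16 from the dimmest to the brightest of 5 signal ranges with limits at 7, 8, 9 and 10. Its calculation was tested on simulated data with equal, independent error for every probe set. In the dimmest range that test set no limit on the error recovered. The array error holds no spread between mice and no shift that all probe sets of a gene share. Python 3.11.15, pandas 2.3.3 and statsmodels 0.14.6 were used. Alternatives were median centring, quantile normalization, loess, other floors, a pseudocount of 16, other filters and other choices of probe sets.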

Additional observations from a re-analysis of the deposited data

How the results depend on the processing

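Avp and Oxt kept their direction and stayed higher in the KO pool by at least 0.32 under all 10 alternatives. Of these, only the changes of scaling and the pseudocount could move the 2 differences, since each gene has a single bright probe set. No measured member probe set reached 1.5-fold under any of the 9 alternatives that count probe sets. Avp had the highest difference among the genes with a mean log2 signal of 10 and above in 9 of the 10, and was second when probe sets were averaged per gene. The difference of Avpr1a, -0.47 in the text, became 0.060 with a floor at the 50th percentile, where both pools are at the floor and the value is the gap between the floors. The count of list genes apart by at least 0.32, 16 in the text, became 9 with the filter at the 70th percentile, which tests fewer genes. Of the list genes named by rule, Pomc reversed, from -0.35 by its brightest probe set to 0.14 as the mean of its probe sets, and the cause was not tested. Of 483 values of the 50 named list genes, 6 more moved by over the array error. Vipr2 was -0.45 with the floor at the 50th percentile, where Prcp was -0.57, and both were then under 1.5-fold, leaving 3 list genes past it. As means of their probe sets Clock was 0.09, Plcb1 0.10, Rgs16 0.13 and Tcf7l2 0.53, and Itpr2 was 0.21 without _s_at and _x_at probe sets. With the limit required in each pool alone, chosen after seeing the data, the count of 16 became 14. No paired analysis was possible because each group is 1 pooled array, and for the same reason no replicate could be left out. A dim signal limits what can be said of Oxtr and Avpr1a, and signal over background cannot be judged further without detection calls.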
